A study of Mus musculus with 6 samples.

Results

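The FOXP genes Foxp1, Foxp2 and Foxp4 were followed through RNA-Seq libraries of the embryonic mouse lateral cortex. Members were taken by name, as the rows of the deposited gene count table for this family, and they were 3 of its 17068 genes. The mouse annotation (GENCODE M21) holds 4 FOXP genes, and Foxp3 was not analysed here. There were 6 libraries at embryonic day 12.5, each from a female embryo of strain c57/bl6. The 4 Control libraries came from Cre-negative embryos, of which controls 1, 2 and 4 were Foxp1 fl/+ and control 3 was Foxp1 fl/fl. The other 2 libraries are labelled Foxp1 fl/fl;Emx1Cre (Foxp1cKO), so every embryo carried at least 1 floxed allele. Emx1-driven Cre acts in the progenitors of the dorsal telencephalon and their progeny, and vessels, microglia and ventrally born cells of the same tissue keep an intact Foxp1 allele.

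FOXP proteins are forkhead transcription factors that bind DNA as dimers with themselves or with each other, through a leucine zipper that other forkhead proteins lack, and they act largely as repressors. In the developing cortex Foxp1 is known from radial glia and later from upper- and mid-layer neurons, Foxp2 from deep-layer neurons, and Foxp4 from progenitors and neurons. Because the members can pair with each other, the level of each was given both on its own and as a part of the family.

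The members are close in sequence where they bind DNA. The exon below codes for a part of the forkhead domain, by which the family binds DNA, and it is shown so that the members can be compared base by base. Sequences are in GRCm38 (mm10), coding strand, 5′ to 3′. Capitals mark the 65 of 102 bases that all 3 members share.
Foxp1, exon 12 of Foxp1-205, chr6:98944619-98944720, minus strand: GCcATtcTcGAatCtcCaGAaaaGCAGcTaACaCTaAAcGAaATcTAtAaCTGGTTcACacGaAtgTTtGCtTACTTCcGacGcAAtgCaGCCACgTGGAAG
Foxp2, exon 14 of Foxp2-205, chr6:15411242-15411343, plus strand: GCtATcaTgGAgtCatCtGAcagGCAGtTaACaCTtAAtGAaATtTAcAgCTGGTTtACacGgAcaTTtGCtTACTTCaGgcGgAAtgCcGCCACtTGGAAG
Foxp4, exon 13 of Foxp4-201, chr17:47874635-47874736, minus strand: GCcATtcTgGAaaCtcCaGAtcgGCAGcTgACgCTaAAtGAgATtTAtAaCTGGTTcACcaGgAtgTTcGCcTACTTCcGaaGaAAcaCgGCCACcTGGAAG

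No run of capitals in these exons is long, and differences between the members fall every few bases. The exon shown is a small part of each gene, at 0.742% of the annotated exon bases of Foxp1, 0.624% of those of Foxp2 and 2.07% of those of Foxp4.

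Library totals ran from 50076008 to 78346979 counts, so that 3 counts, taken as the lowest detectable number, came to between 0.0381 and 0.0596 CPM (counts relative to library size, TMM-scaled). All 3 members lay far above this in every library, and the counting error of a single count was 1.01 to 2.16%. Counting error alone was therefore small beside the spread between embryos. Across all genes, 26 of 17068 (0.152%) passed an adjusted p of 0.05 in edgeR, and all of them were higher in the libraries labelled Foxp1cKO. DESeq2 called 507, of which 310 were higher and 197 lower.

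Foxp1, the gene the allele targets (ENSMUSG00000030067.17, chr6:98925338-99522721, minus strand), is given first. It read 59.7, 60.8, 71.2 and 79.1 CPM in controls 1 to 4, and 83.2 and 76.8 CPM in the libraries labelled Foxp1cKO 1 and 2. The libraries labelled Foxp1cKO thus sat at the upper end of the control range, the first above every control and the second just under control 4. The means were 67.7 ± 9.18 CPM (SD, n = 4) and 80.0 ± 4.52 CPM (SD, n = 2), a log2 difference of 0.24 (SE 0.129) that did not pass the test (edgeR, adjusted p = 0.468). The 95% interval of the ratio ran from 0.957 to 1.46, so that a loss of more than a few percent of Foxp1 counts lies outside it. Of the 8 ratios of a labelled Foxp1cKO library to a control, 7 were above 1.

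Gene-level counts of Foxp1 were thus not lower under the Foxp1cKO label, and the groups are named by their labels. The counts are per gene and not per exon. Which exons the floxed allele removes is not given in the sources used here, and the longest internal coding exon of Foxp1 holds 205 bases, 1.49% of its annotated exon bases, so a gene total checks neither the loss of a single exon nor the label. In bulk tissue, fewer cells of a type and less RNA per cell cannot be told apart.

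Foxp2 (ENSMUSG00000029563.16, chr6:14901349-15441977, plus strand), the paralogue on the same chromosome, read 34.5, 48.7, 63.3 and 55.4 CPM in controls 1 to 4 and 72.6 and 82.5 CPM in the libraries labelled Foxp1cKO. Both of the latter lay above every control, a pattern that 11.5% of all genes shared. The means were 50.5 ± 12.2 CPM (SD, n = 4) and 77.5 ± 6.98 CPM (SD, n = 2). The log2 difference was 0.62 (SE 0.216), a ratio of 1.54 with a 95% interval from 1.08 to 2.19.

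This difference did not pass the adjusted threshold (edgeR, adjusted p = 0.326). Its unadjusted p was 0.0240, and 13.0% of all genes had an unadjusted p under 0.05. All 8 ratios of a labelled Foxp1cKO library to a control were above 1, from 1.15 with control 3 as the reference to 2.39 with control 1. Foxp2 also varied more than most genes among the controls themselves. Its highest control was 1.83 times its lowest, and its control SD of 0.375 on the log2 scale was above that of 92.0% of 2574 genes of similar level, whose median was 0.126.

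Foxp4 (ENSMUSG00000023991.16, chr17:47867133-47924645, minus strand), the most abundant member, read 137, 123, 135 and 118 CPM in the controls, against 123 and 130 CPM under the Foxp1cKO label. Both of these lay inside the control range. The means were 128 ± 9.16 CPM (SD, n = 4) and 126 ± 4.73 CPM (SD, n = 2), and the log2 difference of -0.021 (SE 0.0871) had a 95% interval from -0.23 to 0.18 (edgeR, adjusted p = 0.942). Its control SD of 0.104 on the log2 scale was above that of 45.0% of 1905 genes of similar level. Foxp1 stood between its paralogues in this respect, with a control SD of 0.193 that was above that of 73.6% of 2540 such genes.

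**Figure D1:**
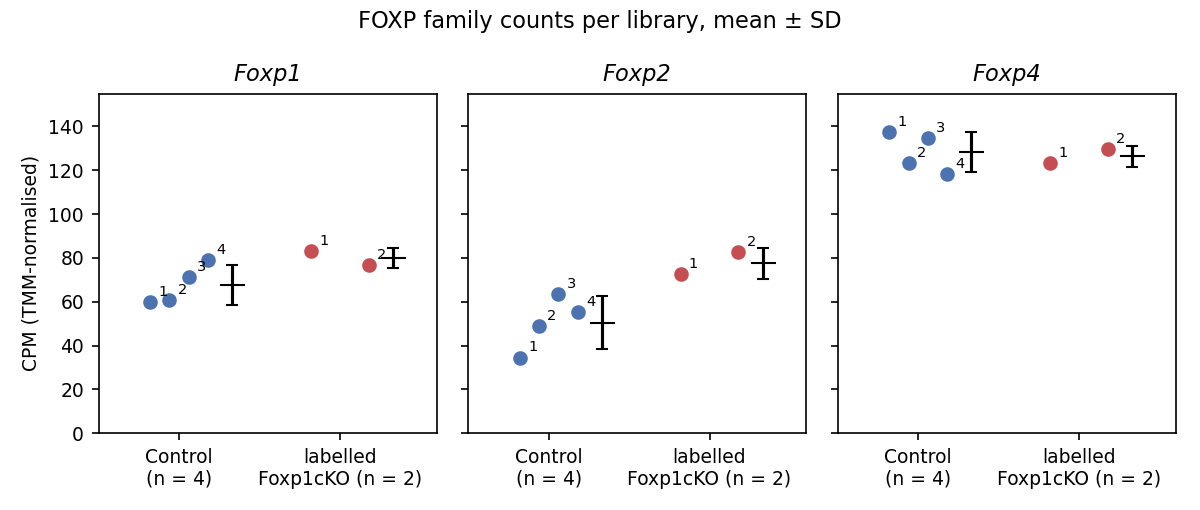
TMM-scaled CPM of Foxp1, Foxp2 and Foxp4 in each library (points, numbered by replicate), with the mean ± SD of the 4 Control and 2 labelled Foxp1cKO libraries. The Foxp2 points of the libraries labelled Foxp1cKO, at 72.6 and 82.5 CPM, lie above all 4 controls, and the Foxp4 points overlap.

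None of the 3 members passed the adjusted threshold in edgeR, beside 0.152% of all genes. DESeq2, which called 3.36% of the genes it gave an adjusted p, called none of the members either. The p-values measure the spread between these 6 embryos, and the litters they came from were not part of the fit.

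Levels of different genes were compared per kilobase of annotated exon. Foxp4 was highest in every library, at 26.0 ± 1.86 CPM per kb in the controls (SD, n = 4), against 25.7 ± 0.960 under the Foxp1cKO label (SD, n = 2). Foxp1 followed with 4.92 ± 0.667 and 5.81 ± 0.329 CPM per kb, and Foxp2 with 3.09 ± 0.746 and 4.74 ± 0.427. The order Foxp4, Foxp1, Foxp2 held in all 6 libraries. On the length of the longest transcript instead, Foxp2 (12.2 CPM per kb) exceeded Foxp1 (10.7) in the library labelled Foxp1cKO 2, so the order of these neighbours depends on the length used there. Among 17047 genes with a length, Foxp4 stood at the 88.8th percentile of level, Foxp1 at 52.4 and Foxp2 at 45.1.

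The summed level of the family hardly differed between the groups, at 34.1 ± 1.74 CPM per kb in the controls, against 36.2 ± 1.06 under the Foxp1cKO label (two-sided exact permutation p = 0.2). Its composition differed more. Foxp2 made up 6.15, 9.19, 10.6 and 10.2% of the family in controls 1 to 4, and 12.5 and 13.7% in the libraries labelled Foxp1cKO, which lay above every control. Foxp4 made up 81.2, 77.2, 75.1 and 72.4% in the controls and 70.4 and 71.2% in the others, below every control. The shares of Foxp1 overlapped, at 14.5 ± 2.04% and 16.1 ± 1.38%.

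The exact permutation p was 0.133 for the shares of Foxp2 and Foxp4, and 0.467 for Foxp1. The smallest two-sided value that 15 assignments of the libraries allow is 0.0667, so the design cannot reach 0.05 on these shares. On the length of the longest transcript, the mean share of Foxp2 was 15.2% in the controls and 21.1% in the others, and that of Foxp4 was 65.6% and 58.3%. Shares of a whole are tied to each other, so the lower share of Foxp4 and the higher share of Foxp2 are not separate observations. The ratio of Foxp2 to Foxp4 was higher by 0.67 on the log2 scale in the libraries labelled Foxp1cKO (exact permutation p = 0.133), that of Foxp1 to Foxp4 by 0.27 (exact permutation p = 0.267). The ratio of Foxp1 to Foxp2 differed by -0.40 (exact permutation p = 0.2).

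**Figure D2:**
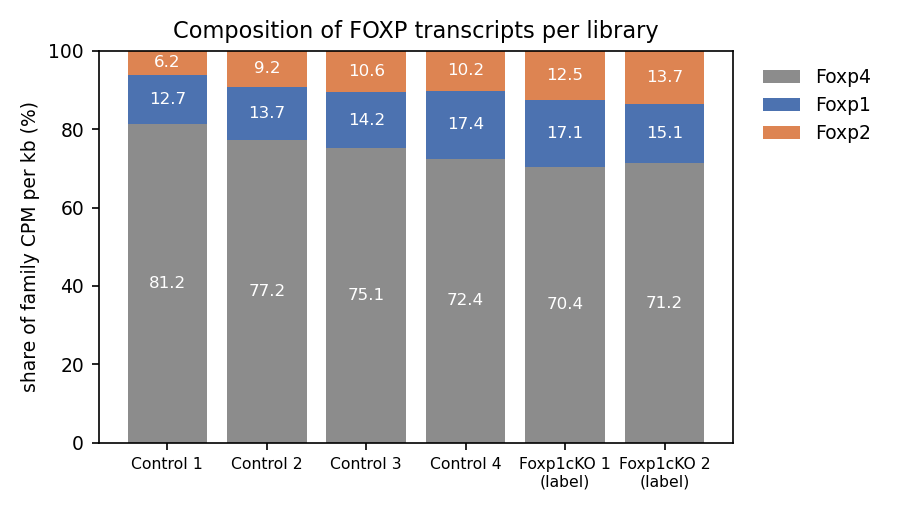
Stacked share of each FOXP member in the family's summed CPM per kb of annotated exon, in percent, for the 6 libraries. Foxp2 takes 6.15 to 10.6% in the controls, against 12.5 and 13.7% under the Foxp1cKO label, while Foxp4 takes 70.4% or more on this length.

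The wider forkhead superfamily gives the setting of these values. Of 44 annotated forkhead genes, 24 were in the table, and among them Foxp4 ranked 3rd by level per kilobase, Foxp1 11th and Foxp2 14th. By log2 difference Foxp2 ranked 1st, Foxp1 6th and Foxp4 19th. None of the 21 others was called by edgeR (3 had an unadjusted p under 0.05, against 13.0% of all genes). Their median log2 difference was 0.06, beside -0.0045 over all genes.

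DESeq2 called 3 of these 21, against 3.36% of all genes it tested, and they were Foxj1, Foxn3 and Foxo3. Foxo3, a factor of the insulin and stress response, read 37.3, 46.8, 41.0 and 40.7 CPM in the controls, against 56.0 and 62.7 CPM under the Foxp1cKO label (log2 difference 0.52, SE 0.106, edgeR adjusted p = 0.225). Foxn3 read 130 to 166 CPM in the controls and 204 and 190 CPM in the others (0.44, SE 0.105, edgeR adjusted p = 0.242). Foxj1, the regulator of motile cilia, was lower, at 6.68 to 8.03 CPM against 4.79 and 5.15 CPM (-0.54, SE 0.153, edgeR adjusted p = 0.278). Among the most abundant others per kilobase were Foxk2, Foxm1, which drives cell division genes, Foxo6 and Foxn3. Their log2 differences were 0.059, 0.13, -0.36 and 0.44.

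**Figure D3:**
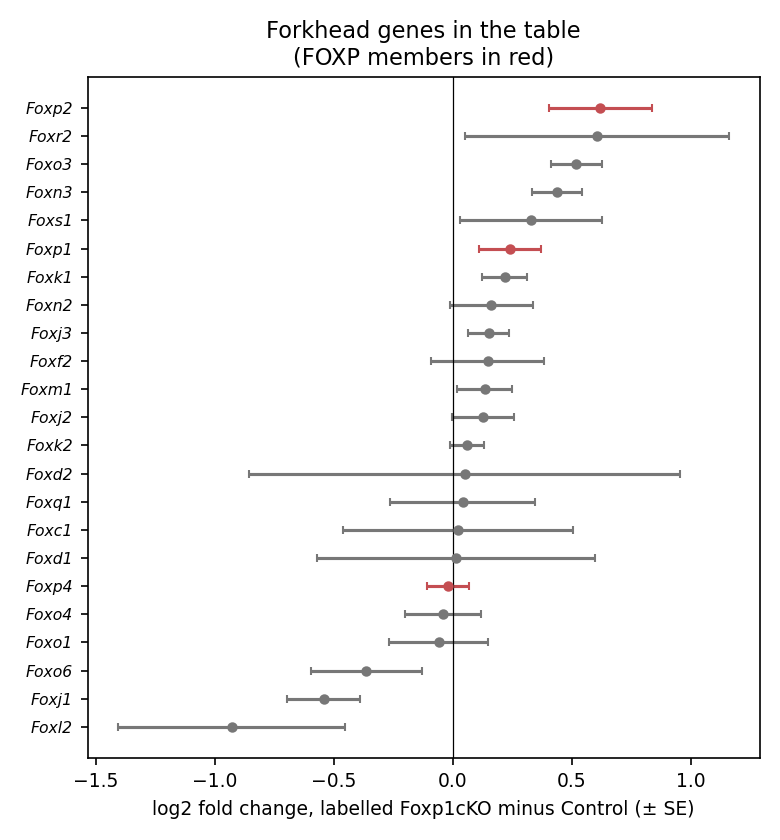
Log2 difference, labelled Foxp1cKO minus Control, with its SE from edgeR, for 23 of the 24 forkhead genes in the table (FOXP members in red). Foxp2 stands highest at 0.62, Foxp1 lies at 0.24 and Foxp4 at -0.021, and no gene shown passed the adjusted threshold in edgeR.

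FOXP proteins act with corepressors such as the NuRD and CtBP complexes and with other cortical factors, and 25 such partner genes were in the table. None of the 25 was called by edgeR or DESeq2, and 5 had an unadjusted p under 0.05 in edgeR, beside 13.0% of all genes. The median log2 difference of the partners was -0.088, with 10 above 0 and 15 below. Among the largest differences were those of Ctbp2 (0.60), which read only 0.26 to 0.50 CPM, Zmynd8 (0.43, edgeR adjusted p = 0.292) and Nr2f2 (0.40, edgeR adjusted p = 0.847). Nr2f2 was high only in the library labelled Foxp1cKO 1, at 134.7 CPM. It read 27.45 CPM in Foxp1cKO 2 and 18.88 to 94.34 CPM in the controls. The partners as a group lay near the median of all genes.

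Of 10 genes described elsewhere as FOXP targets, none was called by edgeR, beside 0.152% of all genes. A log2 difference above 0 was seen for 9 of the 10, and for 8407 of all 17068 genes. The median was 0.25 for the targets and -0.0045 over all genes. Both libraries labelled Foxp1cKO lay above every control for 3 of the targets, against 11.5% of all genes. DESeq2 called 2 of the targets, Plaur and Vldlr, beside 3.36% of the genes it gave an adjusted p. Plaur, the urokinase receptor, read 0.533, 0.418, 0.576 and 0.559 CPM in the controls and 1.35 and 1.29 CPM in the others (log2 difference 1.34, SE 0.240, edgeR adjusted p = 0.178).

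Vldlr, a receptor for reelin, read 49.6, 63.9, 75.1 and 36.9 CPM in the controls, against 91.0 and 119 CPM under the Foxp1cKO label (0.90, SE 0.264, edgeR adjusted p = 0.282). Cdh2, the N-cadherin of progenitor junctions, read 365 to 433 CPM and 523 and 441 CPM (0.29, SE 0.103, edgeR adjusted p = 0.331). Rarb, Jag1, Srpx2, Disc1, Cntnap2 and Met had differences of 0.42, 0.35, 0.21, 0.14, 0.10 and 0.053, and Mef2c had -0.22. The list was drawn from what is known of FOXP1 and FOXP2 in several tissues, and direct regulation in these cells was not tested.

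The cell makeup of the dissected tissue was read from marker lists. Genes of the radial glia, cortical neuron and ventral telencephalon lists were detected. The authors had removed low genes from the table, so no listed gene in it could be at 0 throughout. Sox2 of the radial glia list and Tubb3 of the cortical neuron list were not in the table. Flt1, a vascular receptor, was the only marker called by edgeR (log2 difference 1.64, SE 0.159, adjusted p = 0.0179), beside 0.152% of all genes. The 10 listed endothelial genes, Flt1 among them, had a median log2 difference of 0.014, with 6 above 0 and 4 below. Their sums overlapped, at 150 to 230 CPM in the controls, against 208 and 256 CPM under the Foxp1cKO label. Summed red cell genes came to 1451, 1100, 1150 and 3544 CPM in controls 1 to 4, against 3849 and 4143 CPM under the Foxp1cKO label. Control 4 thus stood nearer to the libraries labelled Foxp1cKO than to the other controls. The ventral list summed to 318 to 1127 CPM in the controls and 537 and 748 in the others, and control 3, its highest library, was also the control with most Foxp2.

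Relative to the mean log2 level of the cortical neuron list, Foxp2 stood at -2.29, -1.94, -1.72 and -1.23 in the controls, against -1.14 and -1.03 under the Foxp1cKO label. Those lay above every control (exact permutation p = 0.133), as was also the case relative to the intermediate progenitor list. Relative to every other marker list the groups overlapped. For the radial glia list the values were -2.33 to -1.14 in the controls and -1.51 and -1.22 in the others. For the ventral list they were 1.47, 1.33, 0.20 and 1.95 in the controls and 1.18 and 1.93 in the others. The part that any of these cell types takes in the Foxp2 difference was not tested.

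Across the 6 libraries, 15 relations were computed, between pairs of members and between members and 4 marker lists, and none had an adjusted p under 0.05. Foxp1 was lower where the intermediate progenitor list was higher (Pearson r = -0.94, exact permutation p = 0.00694, adjusted p = 0.104). Spearman's rho for it was -0.943 (exact permutation p = 0.0167, adjusted p = 0.25). Controls 1 and 2 lay farthest from the median of that list, and without them r was -0.845. The intermediate progenitor list summed to 792 to 1039 CPM in the controls, against 742 and 835 CPM under the Foxp1cKO label. Of its 8 genes, 7 had a log2 difference below 0 (median -0.24), beside 8661 of all 17068 genes. For 3 of the 8, both libraries labelled Foxp1cKO lay below every control, as for 2235 of all genes. The correlation across the 6 libraries also takes in the difference between the groups.

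Foxp1 and Foxp2 had r = 0.812 (exact permutation p = 0.0486, adjusted p = 0.326) and rho = 0.714 (exact permutation p = 0.136, adjusted p = 0.255). Controls 1 and 2, where Foxp1 was lowest, lay farthest from its median. Without controls 1 and 2, r was 0.14, over a narrower range of Foxp1, which can by itself lower r. Whether the relation rests on those libraries was not tested. Apart from the values without controls 1 and 2, no correlation over fewer than 6 libraries is given, so none is given within groups.

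**Figure D4:**
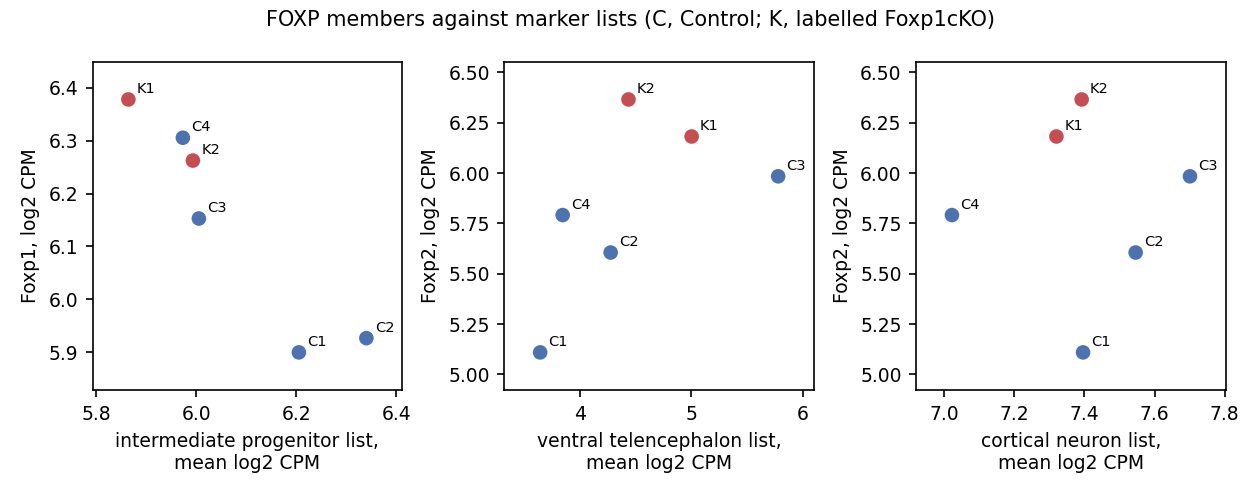
Log2 CPM of Foxp1 against the intermediate progenitor list, and of Foxp2 against the ventral telencephalon and cortical neuron lists (mean log2 CPM of each list), with a point per library. Foxp1 falls along the intermediate progenitor list (r = -0.94), and Foxp2 shows no such line with the neuron list, where control 4 is lowest.

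Genes whose log2 CPM followed each member most closely over the 6 libraries were named from the 10098 genes with a mean of at least 10 CPM. For Foxp1 they were Rptor (r = 0.991), Tfb1m (0.990) and Rprd1a (0.989), and for Foxp2 Mterf2 (0.993), Ntn4 (0.983) and Cpa4 (0.980). For Foxp4 they were Tbc1d8 (0.984), Ndel1 (0.979) and Spryd7 (0.973). With so many genes and so few libraries, 52, 25 and 13 genes reached r = 0.95 for Foxp1, Foxp2 and Foxp4, and these values describe the libraries only.

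The loci were examined for genes that overlap a member or lie nearest to it. Gm20696, annotated on the same strand as Foxp1, shares 300 of the 13751 exon bases of Foxp1 (2.18%) and had 67 to 154 counts a library (log2 difference 0.61, edgeR adjusted p = 0.431). Of the 12 nearest protein-coding genes in the table on either side of the members, none was called by edgeR. An unadjusted p under 0.05 was found for 1, beside 13.0% of all genes, and the log2 differences ran from -0.314 to 0.855. On the left of Foxp2, 2610001J05Rik (1030 kb away) was lower in both libraries labelled Foxp1cKO (-0.31, edgeR adjusted p = 0.351), while Gpr85 (1061 kb) had -0.020. On the right of Foxp2, Mdfic (279 kb) had 0.30 and Tfec (1391 kb) 0.25, each smaller than the 0.62 of Foxp2. Mitf, 904 kb from Foxp1, had 0.62 (edgeR adjusted p = 0.408).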

How the data were processed

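RNA-Seq was made from total RNA of lateral cortex with a stranded kit. The authors aligned reads with STAR to mm10, counted them per gene with HTSeq 0.9.1 (strand setting not given in the sources used here), removed low genes and deposited raw counts. The authors also deposited log2-like values from the variance stabilizing transformation of DESeq2 1.30.1. From the counts, edgeR 4.0.16 (R 4.3.3) gave TMM-scaled CPM and a quasi-likelihood test over all 17068 genes with Benjamini-Hochberg adjustment and group as the only term. The study's model also held litter, which the labels do not give. Alternatives used DESeq2 1.42.0, limma 3.58.1 on the transformed values, other scaling, a minimum mean of 100 counts, libraries left out and replicate blocks. GENCODE M21 gave names and lengths for 17047 genes. Correlations used log2 CPM with a prior count of 2.

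Named genes were the members, the 5 most abundant other forkhead genes, the 5 partners with the largest differences, all listed targets, any gene past the threshold in a list, and the 3 genes most like each member. A few items that this rule names are not reported here. Genes called by DESeq2 and locus neighbours were named after their values were seen. The members and lists were chosen with earlier results of these data known. The fits were tested on simulated data. Intervals and floors cover counting error only where they rest on counts of 1 library.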

Additional observations from a re-analysis of the deposited data

Results flagged for a closer look

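Among 74 values tested in the 4 controls, 2 are given here that had a library set apart from the others, and chance flags about 1 value in 20. The measure is the gap to the nearest library over the whole range of the controls on the log2 scale, so a narrow range can give a high value. For Reln it was 0.889, with 393 CPM in control 2 and 323 to 330 CPM in the other controls, and the library labelled Foxp1cKO 2 was higher still at 471 CPM. For the embryonic globin Hba-x it was 0.83, with 559 CPM in control 4 and 80.2 to 112 CPM in the other controls. No value of Foxp1, Foxp2 or Foxp4 stood apart in this way.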

How the results depend on the processing

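Across 13 settings, counting the fit as reported, the log2 difference ran from 0.167 to 0.407 for Foxp1 (adjusted p 0.179 to 0.936) and from 0.456 to 0.915 for Foxp2 (adjusted p 0.135 to 0.885), with no change of direction or call. The upper ends, 0.407 and 0.915, came from the replicate block, in which only controls 1 and 2 are set against the libraries labelled Foxp1cKO. For Foxp4 the log2 difference ran from -0.0773 to 0.0166 and turned positive, at 0.0166, without the library labelled Foxp1cKO 1. With each library left out in turn, the range was 0.167 to 0.323 for Foxp1 and 0.456 to 0.733 for Foxp2. The number of genes past the threshold, 26, was 507 with DESeq2 and 2 to 96 with a library left out, the highest without control 4 and the lowest without control 2. Cell marker genes past the threshold, 1 in edgeR, were 4 with DESeq2 and 0 to 6 with a library left out; Flt1, the marker called, was lost without control 1, control 2 or either library labelled Foxp1cKO. DESeq2 called 3 forkhead and 2 target genes where edgeR called 0.

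Controls and libraries labelled Foxp1cKO share the replicate numbers 1 and 2. Once group means were removed, a control and its numbered counterpart correlated at -0.198 for number 1 and 0.0157 for number 2 (-0.0975 pooled). The 2 libraries labelled Foxp1cKO then mirror each other, so crossing the numbers only flips the sign of each value. Whether embryos with a common number shared a litter or batch therefore cannot be decided from these correlations. Controls 3 and 4 share their numbers with no other library, so in a fit with replicate blocks they add nothing to the difference between groups. That difference sets the libraries labelled Foxp1cKO against controls 1 and 2 only, which had the lowest Foxp1 and Foxp2 of the controls. With the replicate block, 0 genes and 0 markers passed the threshold (3027 genes had an unadjusted p under 0.05), and Foxp2 had a difference of 0.92 with an adjusted p of 0.166. The numbers were also crossed between the groups, a setting chosen after seeing the data and for which the pooled correlation gave no clear ground: 1301 genes then passed, among them 2 of the 3 members (Foxp1 and Foxp2, both higher under the label), 3 forkhead genes, 3 partners, 4 targets and 37 markers. That is the only setting run in which a member passed. With 2 libraries in a group, calls rest on few embryos, and the depth was not the limit for any member.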
